A study of Mus musculus with 7 samples.

Results

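The hedgehog genes described here are the 9 named genes *Ihh*, *Dhh*, *Ptch1*, *Hhip*, *Smo*, *Gli1*, *Gli2*, *Gli3* and *Sufu*, chosen by name as ligands, receptors and signal transducers of one pathway, and all 9 were among the 19233 genes tested of the 52230 genes with matched transcripts. They were measured by RNA-seq in ovarian stroma, here the residual ovary left after repeated puncture to remove granulosa cells. The 4 wildtype (WT) libraries came from *Pgr*+/+ females and the 3 KO libraries from *Pgr*-/- littermates of the PRKO line (allele Pgrtm1Bwo), in which the progesterone receptor gene is disrupted in the germline and so in every cell type of the ovary. Females were 21 to 25 or 21 to 27 days old, as the labels give both ranges, and both genotypes received 5 IU PMSG and, 44 h later, 5 IU hCG, with ovaries collected 8 h post-hCG. Each library was pooled from 3 mice, so the spread between libraries is a spread between pools.

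Hedgehog ligands bind Patched receptors and thereby release Smoothened, which acts through the GLI transcription factors. In the ovary, *Ihh* and *Dhh* are known to be made by granulosa cells of growing follicles, and the receptors and GLI factors are expressed in the surrounding theca and stroma, where *Gli1*, *Ptch1* and *Hhip* are transcribed in response to the ligands. Hedgehog signals are known for their part in forming the theca, including its steroidogenic cells and its smooth muscle layer. Because *Ptch1* and *Hhip* both bind the ligand and respond to it, their mRNA is often read together with that of *Gli1* as a measure of pathway output.

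Library totals ranged from 47.4 M to 63.4 M reads. *Pgr* was at 16.9 to 31.0 CPM (read counts scaled to a common TMM-normalized library size) in WT and 6.13 to 7.56 CPM in KO, with a KO mean of 30.3% of the WT mean. Its log2 fold change (logFC, KO minus WT) was −1.72, with an adjusted p (padj) of 0.0544 in edgeR and 1.25e-14 in DESeq2, so the labels and the gene agreed in direction. All 11 granulosa cell markers and all 8 theca markers listed for the check of the tissue were detected in every library, and none of the 9 marker lists held a gene at 0 in any library. Summed TPM (a level per transcript length) of the granulosa markers was 2490 to 3460 in WT and 3140 to 4180 in KO, so granulosa markers were still detected after depletion.

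None of the 9 hedgehog genes passed edgeR's quasi-likelihood test of KO against WT stroma with padj ≤ 0.05 and a logFC of 0.5 or more in either direction. These thresholds called 2 of all 19233 genes (0.0104%). DESeq2 called 0 of the 9 and 144 of all genes (0.749%). At an unadjusted p under 0.05, edgeR, DESeq2 and limma-voom each found 0 of the 9, and edgeR found 1720 of all genes (8.94%). WT and KO values overlapped for every one of the 9, and 1740 of all genes (9.05%) had no overlap. With only 9 genes, a count of 0 does not set them apart from these shares. Both ligands had a logFC above 0 and the 7 receptors, transducers and GLI regulators one below 0, with a median over the 9 of −0.07 against 0.00 over all genes tested. The 95% confidence intervals of *Gli2*, *Gli3*, *Smo* and *Sufu* lay within 0.25 log2 units of 0, while those of *Ihh*, *Ptch1* and *Gli1* reached beyond 0.5. In bulk tissue, fewer cells of a type and less RNA per cell cannot be told apart.

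**Figure D1:**
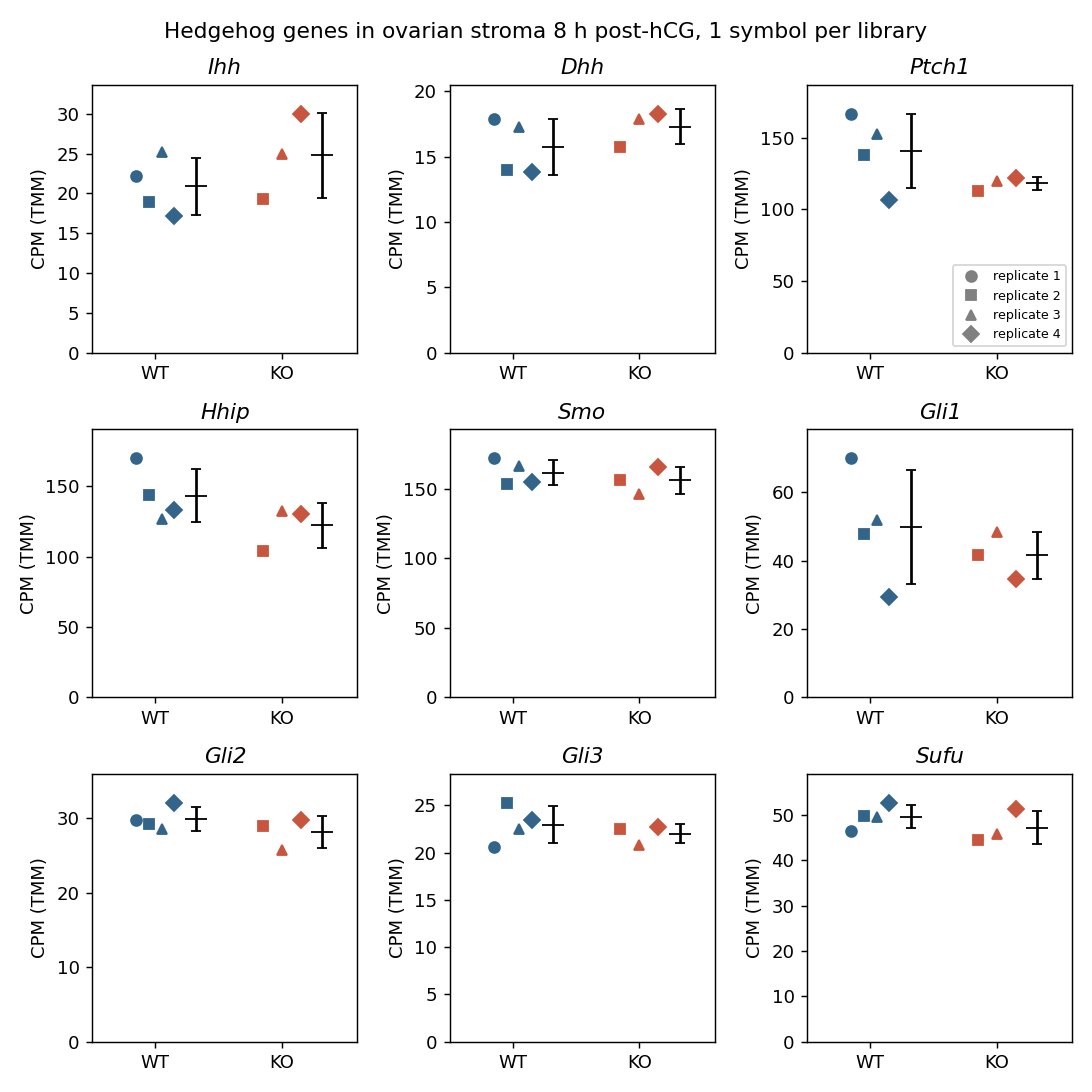
Expression of the 9 hedgehog genes in CPM (TMM-normalized, vertical axis from 0) in WT (blue) and KO (red) ovarian stroma, with 1 symbol per library, its shape giving the replicate number, and the mean ± SD of each genotype in black. The genotypes overlap in every panel, and *Gli1* has the widest spread, from 29.3 to 70.0 CPM within WT.

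*Ihh* encodes Indian hedgehog, a secreted ligand, and lies on the minus strand of chromosome 1 (GRCm39 chr1:74984474-74990837). It was at 22.2, 18.9, 25.3 and 17.2 CPM in WT replicates 1 to 4 and at 19.3, 25.0 and 30.0 CPM in KO replicates 2 to 4. KO replicate 4 was the highest of the 7 libraries and WT replicate 4 the lowest, and the other 5 were interleaved. Mean expression was 20.9 ± 3.58 CPM in WT (SD, n = 4) and 24.8 ± 5.36 CPM in KO (SD, n = 3). The logFC of 0.25 (standard error, SE, 0.17, 95% confidence interval, CI, −0.13 to 0.63) did not pass edgeR's test (padj = 0.72). It was 0.0881 without KO replicate 4 and 0.398 without KO replicate 2 (edgeR, padj = 0.864 and 0.814).

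*Dhh*, on the minus strand of chromosome 15 (chr15:98789033-98796439), encodes Desert hedgehog, the other ovarian ligand of the family. Its level was 17.9, 14.0, 17.3 and 13.8 CPM in WT and 15.7, 17.9 and 18.3 CPM in KO. WT replicates 2 and 4 were the lowest libraries, and WT replicates 1 and 3 lay among the KO libraries. Means of 15.7 ± 2.15 CPM in WT (SD, n = 4) and 17.3 ± 1.36 CPM in KO (SD, n = 3) gave a logFC of 0.14 (SE 0.11, CI −0.12 to 0.39), which was not called in edgeR (padj = 0.767). Leaving out WT replicate 2 or 4 gave 0.0851 or 0.0877. The gene shares 3389 bases with *Rhebl1* on the same strand, which had 275 to 395 reads per library against 702 to 1060 for *Dhh*, so the division of reads between these neighbours is uncertain. The third mammalian ligand gene, *Shh*, had 0 to 2 reads per library and was not tested.

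Across the 7 libraries, the ligands were correlated with each other and with the granulosa cell markers before adjustment for multiple tests but not after it. Pearson's r of log2 CPM between *Ihh* and *Dhh* was 0.884 (two-sided exact permutation p = 0.00833, adjusted over 54 relations 0.179) and Spearman's rho was 0.893 (exact permutation p = 0.0123, adjusted 0.221). It was 0.832 without KO replicate 4 and WT replicate 4, the farthest from the *Ihh* median, and 0.854 after each genotype was centred on its mean. Against the mean log2 CPM of the 11 granulosa markers, r was 0.816 for *Ihh* (exact permutation p = 0.03, adjusted 0.405) and 0.893 for *Dhh* (exact permutation p = 0.00992, adjusted 0.179), with rho 0.893 for each (exact permutation p = 0.0123, adjusted 0.221). Without KO replicate 4 and WT replicate 1 these r values were 0.882 and 0.871, and within genotype they were 0.824 and 0.912. The ligands were not alone in this, since within genotype *Smo* had an r of 0.891 and *Ptch1* of 0.847 with the granulosa mean, and *Ihh* had one of 0.957 and *Dhh* of 0.788 with the theca mean, against −0.099 and −0.152 over all 7 libraries uncentred. None of the 54 relations passed after adjustment. The granulosa marker mean itself was 7.51, 6.95, 7.34 and 6.80 in WT and 7.11, 7.15 and 7.54 in KO. WT replicates 4 and 2, the lowest for both ligands, were also the lowest in this mean, though not in every marker behind it. With this mean as a covariate, the logFC was 0.16 for *Ihh* and 0.09 for *Dhh*, while with the mean of the 8 theca markers in its place it was 1.37 for *Ihh* (edgeR, unadjusted p = 0.000101, padj = 0.479) and 0.71 for *Dhh* (unadjusted p = 0.0167, padj = 0.896). The theca mean did not overlap between genotypes, so in that fit covariate and genotype cannot be told apart.

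*Ptch1* encodes the Patched receptor, which binds the ligands and holds Smoothened inactive without them, and it spans chr13:63656142-63721412 on the minus strand. WT replicates 1 to 4 had 167, 138, 153 and 107 CPM, and KO replicates 2 to 4 had 113, 120 and 122 CPM. WT replicates 1 to 3 lay above every KO library, but WT replicate 4 lay below all of them. The mean was 141 ± 25.8 CPM in WT (SD, n = 4) and 118 ± 4.64 CPM in KO (SD, n = 3). The logFC was −0.25 (SE 0.13, CI −0.55 to 0.05) with an adjusted p of 0.616 in edgeR. Without WT replicate 4 it was −0.36 (edgeR, unadjusted p = 0.00163, padj = 0.24) and without WT replicate 1 it was −0.15 (padj = 0.77), neither of them a call.

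*Ptch1* transcripts start at several exons that give the receptor different first coding sequences, and reads were assigned to transcripts from both main starts in each library. The canonical transcript begins at the upstream start, and a shorter coding transcript begins 1743 bases farther into the gene, at the downstream start. Of the 10 annotated transcripts, the downstream one held 71.3 to 79.4% of the *Ptch1* reads in WT and 74.4 to 78.0% in KO, and the upstream one held 15.5 to 22.8% and 17.3 to 22.1%. Per length, the downstream transcript was at 26.3, 21.7, 26.3 and 18.0 TPM in WT and 18.0, 20.3 and 21.1 TPM in KO. The upstream transcript was at 4.66, 6.29, 5.27 and 3.93 TPM in WT and 4.75, 4.07 and 5.65 TPM in KO. The ratio of the former to the latter was 3.45 to 5.64 over the 7 libraries, with the KO ratios of 3.79, 4.99 and 3.73 inside the WT range. Salmon estimates how reads shared by transcripts are divided, and no error of that division was used here, so these shares are a description with no test.

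**Figure D2:**
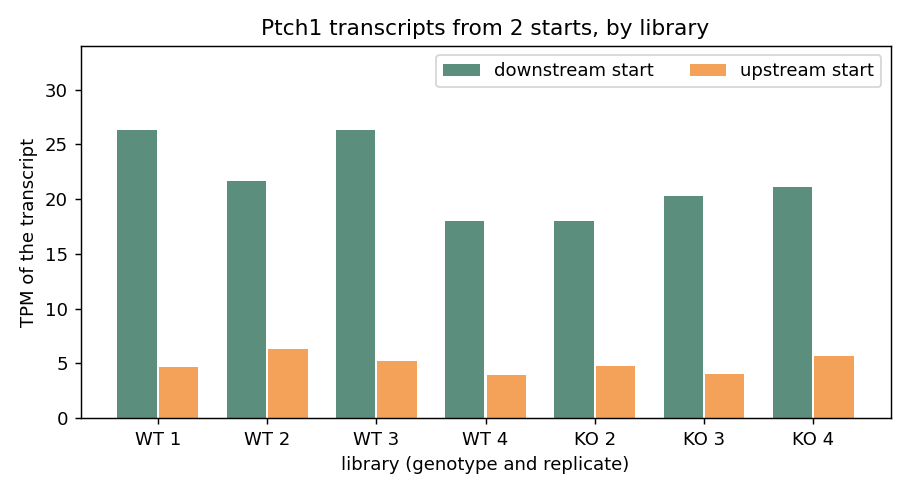
Level in TPM (vertical axis from 0) of the main *Ptch1* transcripts, from the downstream start (green) and the upstream start (orange), in each of the 4 WT and 3 KO libraries, 1 bar per transcript and library. The downstream transcript is 3.45 to 5.64 times as high as the upstream one in every library, and the KO bars lie within or at the edge of the WT range.

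The sequence before each of these starts is printed because *Ptch1* is a known GLI target and its starts differ in the GLI motif. The 9-base motif GACCACCCA, the consensus bound by GLI proteins, was searched on both strands in the 250 bases before the annotated 5′ end of the main transcripts of the 9 genes (10 starts), read from the GRCm39 genome. Only the window of the upstream *Ptch1* start held a match, on the opposite strand (TGGGTGGTC, in capitals), beginning 165 bases before the start, and the downstream *Ptch1* start had none. The windows below are on the minus strand, chr13:63714093-63714342 for the upstream and chr13:63712350-63712599 for the downstream start, and are written 5′ to 3′ toward the start.
Ptch1 upstream start: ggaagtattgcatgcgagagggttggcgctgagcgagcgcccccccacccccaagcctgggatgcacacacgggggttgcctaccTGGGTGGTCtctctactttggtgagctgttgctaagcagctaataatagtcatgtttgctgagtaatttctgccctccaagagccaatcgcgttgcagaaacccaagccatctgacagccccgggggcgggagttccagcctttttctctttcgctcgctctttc
Ptch1 downstream start: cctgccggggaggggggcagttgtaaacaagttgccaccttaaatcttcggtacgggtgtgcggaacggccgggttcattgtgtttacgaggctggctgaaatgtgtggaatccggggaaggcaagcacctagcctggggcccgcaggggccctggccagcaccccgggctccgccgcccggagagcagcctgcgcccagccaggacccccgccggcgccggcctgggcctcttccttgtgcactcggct
Of 21770 starts searched in the same way across the genome, 41 (0.188%) held the motif within 250 bases and 180 (0.827%) within 1000 bases, and among the 10 hedgehog starts the longer window added no match. The shorter core CCACCCA, which lies within the 9-base motif, was found within 250 bases at the upstream *Ptch1* start and at *Gli3* and within 1000 bases also at *Hhip*, against 8.21% and 23.7% of all starts. A match describes the letters of the window, and binding was not measured. The transcript from the start that carries the motif had the lower estimated level in all 7 libraries. The starts are 1743 bases apart, so the same match also lies upstream of the downstream start, beyond its 1000-base window. A link between the motif and the level of either transcript was not tested.

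*Hhip* encodes the hedgehog-interacting protein, a membrane protein that binds and sequesters the ligands, and lies on the minus strand of chromosome 8 (chr8:80692480-80784658). It was at 170, 144, 127 and 133 CPM in WT and 104, 133 and 130 CPM in KO. KO replicate 2 was the lowest and WT replicate 1 the highest library, with the remaining 5 between 127 and 144 CPM. Its mean of 143 ± 19.0 CPM in WT (SD, n = 4) stood against 122 ± 15.9 CPM in KO (SD, n = 3). edgeR gave a logFC of −0.23 (SE 0.12, CI −0.50 to 0.04, padj = 0.608). It was −0.13 without KO replicate 2 and −0.13 without WT replicate 1.

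*Smo* encodes Smoothened, the receptor-like protein that carries the signal into the cell once Patched is bound, and lies at chr6:29735407-29762532 on the plus strand. Its expression was 172, 154, 166 and 155 CPM in WT and 157, 146 and 166 CPM in KO. The libraries differed little, the highest being 1.18 times the lowest. Mean levels were 162 ± 9.00 CPM (SD, n = 4) and 156 ± 9.61 CPM (SD, n = 3), with a logFC of −0.05 (SE 0.07, CI −0.20 to 0.10, padj = 0.867 in edgeR).

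*Gli1* encodes a GLI activator whose own transcription depends on the pathway, and lies on the minus strand of chromosome 10 (chr10:127165751-127177865). Its values were 70.0, 47.8, 51.9 and 29.3 CPM in WT and 41.7, 48.3 and 34.6 CPM in KO. Both the highest and the lowest library were WT, replicates 1 and 4, and the highest was 2.39 times the lowest, the widest range of the 9 genes. The mean was 49.7 ± 16.7 CPM in WT (SD, n = 4) and 41.6 ± 6.86 CPM in KO (SD, n = 3). The logFC of −0.26 had an SE of 0.25 and an interval of −0.82 to 0.30 (padj = 0.809 in edgeR). Without WT replicate 4 it was −0.44 (edgeR, unadjusted p = 0.0265, padj = 0.464), and without WT replicate 1 it was −0.0394 (padj = 0.971).

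*Gli1* and its fellow responsive gene *Ptch1* were likewise correlated before adjustment only. Over the 7 libraries Pearson's r of their log2 CPM was 0.873 (exact permutation p = 0.00952, adjusted over the 54 relations 0.179) and Spearman's rho was 0.821 (exact permutation p = 0.0341, adjusted 0.46). Without WT replicates 1 and 3 r was 0.68, and after centring each genotype it was 0.895. The theca androgen enzyme gene *Cyp17a1* was at 1203, 903, 1162 and 467 CPM in WT and 431, 674 and 655 CPM in KO. WT replicate 4 thus stood below the other WT libraries in this gene, as it did in *Insl3* (20.5 CPM). The theca list was split in this library. WT replicate 4 was the highest of the 7 libraries in *Cyp11a1* (7278 CPM), *Hsd3b1* (3375 CPM), *Fdx1* (1130 CPM) and *Star*. In *Lhcgr* and *Nr5a1* it lay among the other WT libraries. WT replicate 4 was also the lowest WT library in *Ihh*, *Dhh* and the granulosa aromatase gene *Cyp19a1* (17.2 against 28.5 to 76.4 CPM in the other WT libraries), and it was the highest library in *Star*, the carrier of cholesterol into mitochondria (1916 CPM against 849 to 1292 CPM in the other 6). The granulosa list was split in this library too. WT replicate 4 was also the lowest WT library in *Fshr*, *Inha*, *Inhba*, *Inhbb*, *Hsd17b1*, *Serpine2* and *Fst*. It was the highest of the 7 libraries in *Nr5a2* (284 CPM) and the highest WT library in *Foxl2* (94.1 CPM). In *Amh*, WT replicate 2 was lower. The part of this library's cell makeup in the hedgehog values was not tested.

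**Figure D3:**
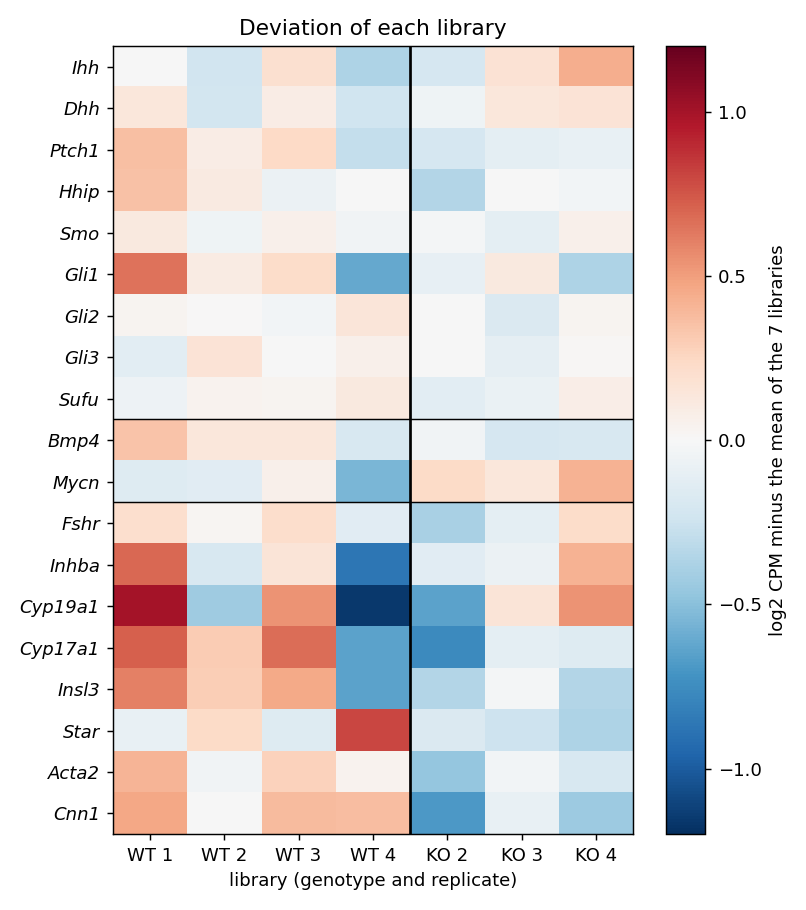
Log2 CPM of each gene minus its mean over the 7 libraries (colour, red above and blue below the mean) for the 9 hedgehog genes (top block), 2 responsive genes (middle) and 8 cell type markers picked after their values were seen (bottom), with WT libraries left and KO libraries right of the line. *Gli1* runs from 0.65 in WT replicate 1 to −0.61 in WT replicate 4, while the *Gli2*, *Gli3*, *Smo* and *Sufu* rows stay within 0.18 of their means.

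*Gli2*, the main activator that relays the signal before *Gli1* is made, lies on the minus strand of chromosome 1 (chr1:118761858-118982598). It was at 29.8, 29.2, 28.5 and 32.1 CPM in WT and 29.0, 25.8 and 29.8 CPM in KO. *Gli3*, whose product is mainly a repressor when the pathway is silent, lies on the plus strand of chromosome 13 (chr13:15637809-15904611) and was at 20.6, 25.3, 22.5 and 23.4 CPM in WT and 22.5, 20.9 and 22.7 CPM in KO. Both genes were even across the libraries, with highest to lowest ratios of 1.25 and 1.23. The genotypes overlapped in both, though KO replicate 3 was below every WT library in *Gli2*. Means were 29.9 ± 1.56 (SD, n = 4) and 28.2 ± 2.13 CPM (SD, n = 3) for *Gli2*, and 23.0 ± 1.95 and 22.0 ± 1.01 CPM for *Gli3*. The logFC was −0.09 for *Gli2* (SE 0.07, CI −0.25 to 0.08, padj = 0.774 in edgeR). That of *Gli3* was −0.06 (SE 0.08, CI −0.24 to 0.12, padj = 0.865 in edgeR).

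*Sufu* encodes Suppressor of Fused, a cytoplasmic inhibitor that binds GLI proteins, and lies on the plus strand of chromosome 19 (chr19:46385324-46477243). It was at 46.4, 49.9, 49.6 and 52.8 CPM in WT and 44.5, 45.8 and 51.4 CPM in KO. KO replicates 2 and 3 were the lowest of the 7, and KO replicate 4 was second only to WT replicate 4. Its mean was 49.7 ± 2.61 CPM in WT (SD, n = 4) and 47.2 ± 3.66 CPM in KO (SD, n = 3), a logFC of −0.07 (SE 0.07, CI −0.23 to 0.08). The adjusted p was 0.803 in edgeR.

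Each of the 9 genes was compared again on log2 CPM in an exact permutation test (two-sided) over the 35 ways to divide 7 libraries into 4 and 3, for which the smallest possible p is 0.0286. The p was 0.20 for *Ptch1*, 0.229 for *Hhip*, 0.286 for each ligand and 0.314 to 0.571 for *Sufu*, *Gli2*, *Smo*, *Gli3* and *Gli1*.

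Compared per length, *Smo* was the most abundant of the 9 genes, with 66.1 ± 2.27 TPM (SD, n = 4) in WT and 66.0 ± 6.73 TPM (SD, n = 3) in KO. The receptors *Hhip* and *Ptch1* followed in WT at 31.8 and 29.9 TPM, then *Gli1* at 28.0, *Sufu* at 19.6, *Ihh* at 14.9, *Gli2* at 7.32, *Dhh* at 5.81 and *Gli3* at 4.34 TPM. In this order the WT libraries of neighbouring genes did not overlap at 3 places, between *Smo* and *Hhip*, between *Ihh* and *Gli2*, and between *Dhh* and *Gli3*. The WT ranges of the other neighbours overlapped. Short transcripts without a coding sequence add to the gene level in TPM, among them one of 795 bases at *Gli1* and one of 1173 bases at *Hhip*. Over coding transcripts alone, *Ptch1* (28.1 TPM) stood above *Hhip* (22.4 TPM) and *Gli1* (20.4 TPM), with ranges that again overlapped between neighbours. Thus *Ihh* was the more abundant ligand on either scale, above *Dhh* in all 7 libraries.

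In the genes other than *Ptch1*, 1 transcript held a still larger share of the reads. The main *Ihh* transcript held 86.9 to 89.4% of its reads, the rest being assigned to a transcript with a retained intron. Those of *Gli1* and *Sufu* held 89.2 to 93.1% and 89.5 to 92.4%, and the main transcripts of the other 5 genes held more than 93% in every library.

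The other hedgehog pathway genes were a list of 33 with roles in ligand release, ligand binding, the primary cilium or GLI processing, of which 32 were tested. None was called by edgeR or by DESeq2, 15 had a logFC above 0 and 17 below, and the median was −0.02. At an unadjusted p under 0.05, edgeR found 5 of 32 (15.6%), 3 higher and 2 lower in KO, and DESeq2 and limma-voom also found 5 each, against 8.94% of all genes. In 5 of the 32 (15.6%) the genotypes did not overlap, against 9.05% of all genes. These were *Scube3*, *Gas1*, *Kif3a*, *Tulp3* and *Btrc*, the last pair named after their values were seen.

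*Scube3*, a secreted protein of the family that helps release the ligands, was at 2.38, 3.10, 2.93 and 3.09 CPM in WT and 3.82, 3.52 and 5.05 CPM in KO. All KO libraries lay above all WT libraries, with a logFC of 0.53 (SE 0.16, padj = 0.372 in edgeR). It was 1 of the 6 ligand release genes tested, of which 3 lay on each side of 0.

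Among 5 ligand-binding genes, 4 had a logFC below 0. The coreceptor gene *Gas1* was at 40.6, 43.0, 39.3 and 51.0 CPM in WT and 38.04, 32.0 and 39.1 CPM in KO, so the genotypes did not overlap, though KO replicate 4 came within 1% of WT replicate 3 (logFC = −0.26, SE 0.11, padj = 0.518 in edgeR). *Lrp2*, an endocytic receptor, had only 42 to 105 reads per library. It was at 2.02, 2.09, 1.26 and 1.64 CPM in WT and 0.82, 0.88 and 1.36 CPM in KO, with overlap of WT replicate 3 and KO replicate 4 (logFC = −0.77, SE 0.25, padj = 0.395 in edgeR).

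Of the 12 genes of the cilium and Smoothened traffic, 8 had a logFC above 0. *Kif3a*, a motor subunit needed to build cilia, was at 23.1, 23.8, 22.9 and 25.1 CPM in WT and 27.3, 25.3 and 28.0 CPM in KO, again with no overlap (logFC = 0.18, SE 0.06, padj = 0.429 in edgeR). Of the 9 genes of GLI processing, 3 lay above and 6 below 0. *Stk36*, the Fused kinase, was at 8.53, 9.995, 11.7 and 10.5 CPM in WT and 12.8, 13.7 and 11.5 CPM in KO, with KO replicate 4 just below WT replicate 3 (logFC = 0.31, SE 0.12, padj = 0.468 in edgeR).

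A list of 10 genes known to respond to hedgehog signals in other tissues had 9 tested members, and *Foxf2* was left out with 2 to 6 reads per library. Neither edgeR nor DESeq2 called any, 1 was higher and 8 were lower in KO by the sign of the logFC, and the median was −0.05. An unadjusted p under 0.05 was found for 3 of the 9 (33.3%) in edgeR and in DESeq2 and for 2 in limma-voom, against 8.94% of all genes in edgeR. In 2 of the 9 (22.2%) the genotypes did not overlap, against 9.05% of all genes. *Mycn*, a growth-promoting transcription factor gene, was at 15.1, 15.2, 17.5 and 11.5 CPM in WT and 19.6, 18.4 and 22.4 CPM in KO. All 3 KO libraries were above the WT libraries (logFC = 0.45, SE 0.13, padj = 0.366 in edgeR).

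*Bmp4*, a secreted growth factor, was at 43.0, 37.2, 37.4 and 29.8 CPM in WT and 33.1, 29.6 and 29.8 CPM in KO, where WT replicate 4 overlapped with the KO libraries (logFC = −0.26, SE 0.11, padj = 0.555 in edgeR). *Bcl2*, an inhibitor of cell death, was at 20, 18.6, 18.9 and 18.0 CPM in WT and 16.1, 16.7 and 17.6 CPM in KO. Its genotypes did not overlap, and its logFC was −0.17 (SE 0.07, padj = 0.506 in edgeR). *Mycn* therefore differed in sign from *Bmp4* and *Bcl2*, and neither sign passed the adjusted test.

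**Figure D4:**
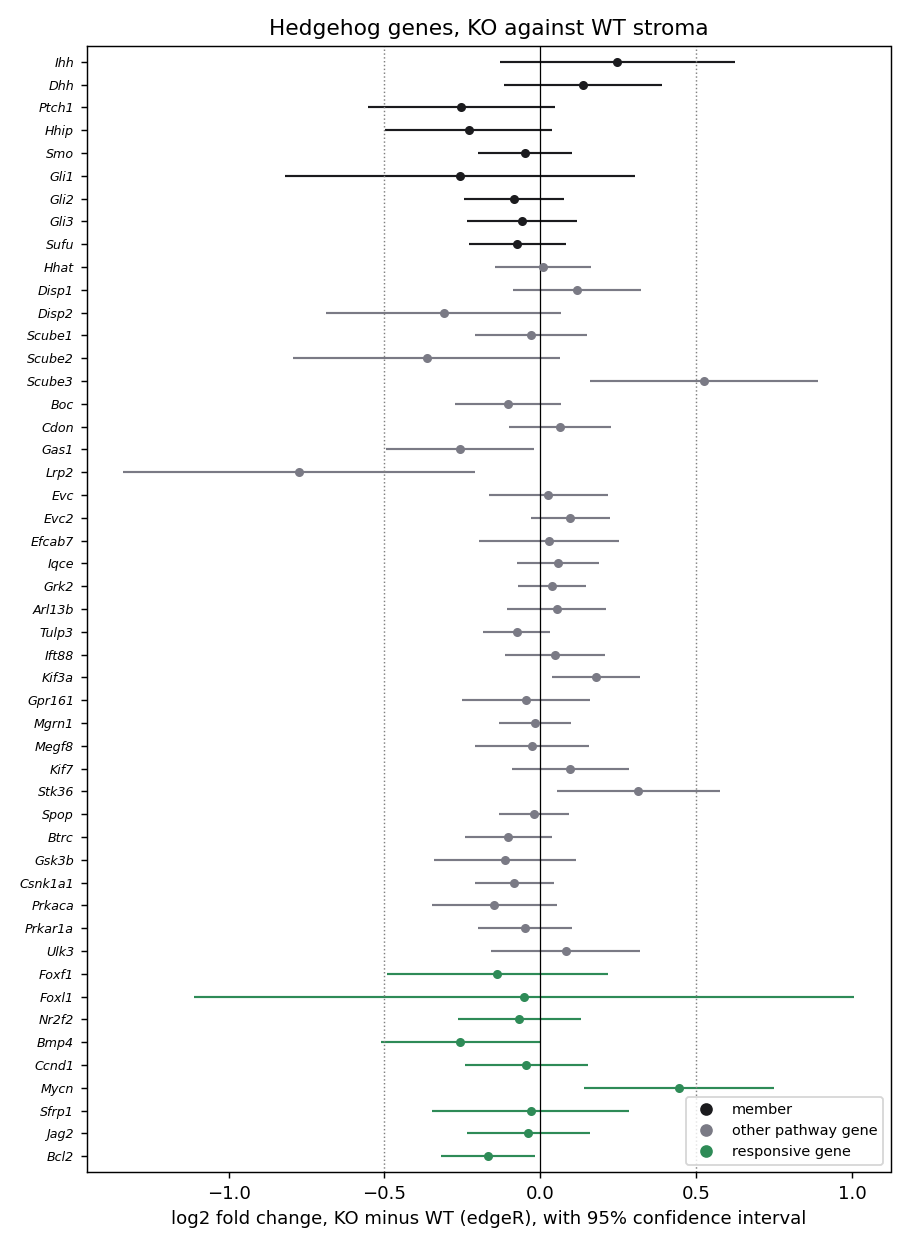
LogFC, KO minus WT, of hedgehog genes in edgeR (horizontal axis) with its 95% confidence interval, for the 9 hedgehog genes (black), 31 other pathway genes (grey) and 9 responsive genes (green), with dotted lines at the fold change required for a call. Every interval of the 9 includes 0, and *Scube3*, at 0.53, and *Lrp2*, at −0.77, are the genes past a dotted line, both with adjusted p above the threshold.

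Markers of the theca, smooth muscle and other cells of the tissue were read beside the hedgehog genes. All 6 smooth muscle markers had a logFC below 0, 5 of them (83.3%) with an unadjusted p under 0.05 in edgeR, as had 8.94% of all genes, and their summed TPM was 1640 to 1970 in WT and 1170 to 1590 in KO without overlap. No smooth muscle marker was called by edgeR. DESeq2 called 2 of the 6, against 144 of all genes (0.749%). These were *Des* and *Cnn1*, genes of the muscle cytoskeleton and its contraction. *Des* was at 58.4, 52.7, 74.3 and 74.1 CPM in WT and 30.6, 42.4 and 40.2 CPM in KO, with every KO library below every WT library (logFC = −0.78, padj = 0.186 in edgeR and 0.000323 in DESeq2).

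Of 8 theca markers, 7 had a logFC below 0 and *Star* alone (12.5%, against 8.94% of all genes) had an unadjusted p under 0.05 in edgeR (logFC = −0.51, padj = 0.529). Summed TPM of the theca list was 9690 to 13400 in WT and 9220 to 10900 in KO, while the mean log2 CPM of its 8 genes was 9.50 to 9.59 in WT and 9.13 to 9.31 in KO and did not overlap. With this theca mean as a covariate, the logFC of *Ptch1*, *Hhip*, *Smo*, *Gli1* and *Sufu* turned positive (0.22, 0.21, 0.10, 0.13 and 0.065), and the values of *Ihh* and *Dhh* given above, 1.37 and 0.71, moved farthest, with none of the 9 called. The 5 endothelial markers were all below 0 as well, with 2 (40.0%) at an unadjusted p under 0.05 and a summed TPM of 250 to 283 in WT and 237 to 270 in KO. Granulosa markers were split, 6 above and 5 below 0. Fibroblast markers were below 0 in 4 of 5, with summed TPM of 1020 to 1440 in WT and 1070 to 1200 in KO, and 1 of them, *Tcf21*, a transcription factor gene named after its values were seen, was lower in every KO library than in every WT library (logFC = −0.39, padj = 0.251 in edgeR and 0.018 in DESeq2). Surface epithelium markers were below 0 in 5 of 5 (17.1 to 37.4 TPM in WT, 15.5 to 28.0 TPM in KO) and leukocyte markers in 2 of 5 (31.9 to 37.6 and 31.5 to 38.7 TPM). Oocyte markers were above 0 in 6 of 6, 2 of them (33.3%) at an unadjusted p under 0.05, with summed TPM of 205 to 292 in WT and 262 to 367 in KO. The 3 ciliated oviduct markers summed to at most 1.44 TPM. Fits with a marker mean as covariate were made for the granulosa and theca lists only, and the theca mean could not be told apart from genotype. The part of these cell types in the values of the hedgehog genes was not tested.

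The genes whose log2 CPM was most like that of *Ihh* over the 7 libraries, among 14883 genes with a mean of at least 1 CPM, were *Epn2* (Pearson's r = 0.99), *Map3k5* (0.987), *Pip4p2* (0.979), *Ptn* (0.966) and *Lrrc10b* (0.966). For *Gli1* they were *Scarf2* (0.988), *Vars1* (0.987), *Dimt1*, *Tro* and *Gm19065* (0.983 each). They are the top of a ranking over many genes and share libraries and depth, so these values are a description with no test, and neither list holds another hedgehog gene.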

How the data were processed

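Stranded mRNA libraries of granulosa cell-depleted ovary (4 WT, 3 KO) were sequenced as paired-end 100 bp reads. The authors quantified them with Salmon (version not given in the sources used here) on the GENCODE M26 mouse transcriptome of GRCm39 and deposited expected counts, TPM and effective lengths per transcript. Salmon's TPM scales each transcript by effective length and library total. Transcripts were matched by identifier to GENCODE M39 on the same assembly (98.8% of 139225, with 99.37 to 99.4% of reads), summed per gene, and expected counts were rounded.

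Differential expression was tested in edgeR 4.0.16 (R 4.3.3; TMM, filterByExpr, two-sided quasi-likelihood F test), p-values being adjusted over 19233 genes by Benjamini–Hochberg, at the study's thresholds. The study applied these thresholds with DESeq2 and then excluded genes to account for granulosa cell contamination, which was not done here. The edgeR test did not call *Pgr* itself (padj = 0.0544). Common biological coefficient of variation was 0.127, so counting error at 47.4 M to 63.4 M reads was small beside it for all but low genes. DESeq2 1.42.0, limma-voom and limma (3.58.1) on log2(TPM + 0.1) were alternatives, with other scalings, filters (none, or 10 reads in every library), length offsets, marker covariates, a replicate block and leaving out each library. Standard errors were obtained from the log2 fold change and its F statistic. The code was tested on simulated data.

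The genes described, the other lists and the tests were chosen with earlier results of these data known. Named beyond the 9 genes were list members with an unadjusted p under 0.05 in each role, the 5 genes most like *Ihh* and *Gli1*, and others where stated. Promoters were read from GRCm39. Values of 1 gene of the pathway list are not reported here, though it is counted in the list.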

Additional observations from a re-analysis of the deposited data

How the results depend on the processing

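The number of genes called was 0 for the 9 hedgehog genes, the other pathway genes and the responsive genes under each alternative tried, including DESeq2, limma-voom, no minimum fold change and every library left out. Of 153 alternative values of the 9 genes, 147 kept the direction and stayed short of the threshold and 6 changed sign, with 0.24 the lowest adjusted p. Of 136 values of the other named genes 135 kept direction and side.

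The reversals came with the theca marker mean as a covariate, where the log2 fold change was 0.22 for *Ptch1*, 0.21 for *Hhip*, 0.10 for *Smo*, 0.13 for *Gli1*, 0.065 for *Sufu* and 0.0415 for *Bcl2*. Since that mean did not overlap between genotypes, the covariate and the genotype cannot be told apart in that fit. The same covariate gave 1.37 for *Ihh* and 0.705 for *Dhh*. Leaving out single libraries gave 0.0881 to 0.398 for *Ihh*, 0.0851 to 0.213 for *Dhh*, −0.358 to −0.153 for *Ptch1*, −0.287 to −0.127 for *Hhip*, −0.436 to −0.0394 for *Gli1*, −0.124 to −0.0197 for *Gli2*, −0.099 to −0.0103 for *Gli3* and −0.136 to −0.0328 for *Sufu*, and moved *Smo* between −0.0911 and 1.58e-05, the latter without KO replicate 3.

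The number with an unadjusted p under 0.05 was less stable. For the 9 genes, 0 in edgeR, it was 2 with the granulosa covariate (*Ptch1*, *Hhip*), 2 with the theca covariate (*Ihh*, *Dhh*) and 0 to 2 when libraries were left out. It was 2 without WT replicate 4 (*Ptch1*, *Gli1*), 1 without WT replicate 3 (*Hhip*) and 1 without KO replicate 2 (*Ihh*). For the other pathway genes, 5 in edgeR, it was 1 with the theca covariate, 2 in limma on TPM, 7 with a replicate block and 2 to 5 when libraries were left out, with 2 without KO replicate 2 and 3 without WT replicate 2 or KO replicate 3. For the responsive genes, 3 in edgeR, it was 1 with the theca covariate, 1 in limma on TPM, 1 with a replicate block and 1 to 3 when libraries were left out, with 1 without WT replicate 1, 2 or 3 or KO replicate 3. The cause was not tested.

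Same-numbered WT and KO libraries deviated together weakly (r = −0.01, 0.11 and 0.09 for numbers 2, 3 and 4). Differently numbered ones had r from −0.131 to 0.098. The numbers were not taken as pairs, though these values do not settle whether the libraries were paired. With a replicate block the log2 fold change was 0.27 for *Ihh*, −0.15 for *Ptch1* and −0.02 for *Gli1*, and 0 of the 9 genes were called among 26 over all genes, against 2 without it. Over all genes the alternatives gave 144 calls in DESeq2, 36 without a filter and 6 with at least 10 reads in every library.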
